A study of Homo sapiens with 12 samples.

Results

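The 9 genes described here encode the general translation factors of mitochondria: GFM1, GFM2, TUFM, TSFM, MTIF2, MTIF3, MTRF1, MTRF1L and MRRF. They were chosen by name, with earlier results of these data known. Their probes were found through the transcript that each probe of the array is assigned to, which gave 111 probes, and all 9 genes were among the 18253 genes measured. RNA from MDA-MB-231 cells, a human triple-negative breast cancer line, was hybridised to 12 one-colour Agilent exon arrays, 3 in each of 4 groups. The cntrl cells received the control oligonucleotides of both treatments. The mimic145 cells were transfected with a miR-145-5p mimic at 5 nM, the sirnaAGO2 cells with Dicer-substrate siRNAs against AGO2 at 500 pM for 72 h, and the sirnaAGO2+mimic145 cells with both. Whether the cells with a single treatment also received the control oligonucleotide of the other is not stated. AGO2 is one of the Argonaute proteins that hold miRNAs in the silencing complex, the others being AGO1, AGO3 and AGO4, and the comparisons ask what the mimic did to these mRNAs when AGO2 was present and when it was reduced.

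Mitochondria make a small set of respiratory chain subunits from their own mRNAs, on their own ribosomes, with factors that are encoded in the nucleus and imported. MTIF2 and MTIF3 start translation, TUFM brings charged tRNAs to the ribosome, TSFM reloads TUFM with GTP, and GFM1 moves the ribosome along the mRNA. MTRF1L and MTRF1 release the finished chain at stop codons, and MRRF then splits the ribosome for reuse together with GFM2. GFM1 and GFM2 are related proteins, both of the elongation factor G family, but the first serves elongation and the second recycling.

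The miRNA under study is shown because every comparison turns on its mimic. Its mature sequence, from RefSeq on GRCh38.p14 at chr5:149430661-149430683 on the plus strand, has 23 bases, and the capitals mark the seed, bases 2 to 8.
hsa-miR-145-5p: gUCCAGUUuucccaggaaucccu
Matches to this seed in the mRNAs of the factors were not analysed here.

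GFM2 and MRRF, the pair that recycles the ribosome, each have a start site close to that of a neighbouring gene on the other strand. The start of GFM2 lies 132 bases from that of NSA2, a gene of ribosome biogenesis, and the start of MRRF lies 42 bases from that of RBM18, which encodes an RNA-binding protein. Both windows are printed to show the sequence that the neighbours share. They run from 250 bases before the start to 50 bases after it, from RefSeq on GRCh38.p14, 5′ to 3′ on the strand of the factor, and the capitals run from one start to the other.
GFM2, chr5:74767068-74767367, minus strand: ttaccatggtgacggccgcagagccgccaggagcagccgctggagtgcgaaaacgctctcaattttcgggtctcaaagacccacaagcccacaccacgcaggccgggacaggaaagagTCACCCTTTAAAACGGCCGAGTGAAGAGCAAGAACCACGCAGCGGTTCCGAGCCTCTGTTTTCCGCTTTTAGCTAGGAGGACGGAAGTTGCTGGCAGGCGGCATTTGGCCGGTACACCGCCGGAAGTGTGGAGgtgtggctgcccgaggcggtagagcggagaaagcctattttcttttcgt
MRRF, chr9:122264632-122264931, plus strand: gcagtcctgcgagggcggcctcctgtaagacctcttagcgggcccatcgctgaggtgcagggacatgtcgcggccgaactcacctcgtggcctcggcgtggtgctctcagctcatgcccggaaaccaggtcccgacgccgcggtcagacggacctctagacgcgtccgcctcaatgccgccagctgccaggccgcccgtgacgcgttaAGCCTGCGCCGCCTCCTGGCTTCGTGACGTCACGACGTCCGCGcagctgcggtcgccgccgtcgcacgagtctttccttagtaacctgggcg
Over the 10 promoter windows listed for the 9 factors (MTRF1 has several), the ETS motif CCGGAAG, searched on both strands, was present in 6, those of GFM1, GFM2, MTIF2, MTRF1, MTRF1L and TUFM. It was present in 10.3% of all 35116 windows of that table. In GFM2 the match lay between the 2 starts, 13 bases before its own. The motif searches were not planned in advance, and the difference in share was not tested. GC content ran from 44.7% to 68.3% in the windows of the factors, and its median over all windows was 58.7%. The core TGCGCA of the NRF1 motif was in 0 of the 10 windows and in 8.2% of all.

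On the arrays, 60.5% to 77.3% of the spots were well above background and none was saturated. Of the genes that mark this line, VIM, CD44, CAV1, AXL, MSN and KRT18 were measured well above background. Of the genes expected to be low in this line, the hormone receptor gene PGR kept 0 of its 9 probes and ESR1 6 of 14. ERBB3 kept 11 of 29, and the epithelial genes CDH1 and EPCAM kept 7 of 16 and 9 of 10. The kept probes of CDH1 and EPCAM had means of 8.20 and 8.59 in cntrl, so not all of these genes were low. For other cell types, the leukocyte gene PTPRC kept 4 of 33 probes, the liver gene ALB 2 of 15 and the endothelial gene PECAM1 1 of 2. AGO2 mRNA in the sirnaAGO2 cells was 61.0% of that in cntrl cells (adjusted p = 0.00491, limma over all genes). Silencing was thus partial at the mRNA level, and the arrays do not measure AGO2 protein. With the mimic in control cells AGO2 was itself called higher, by 0.28 on the log2 scale (limma, adjusted p = 0.0298). Its mean was 9.12 in cntrl and 8.41 in sirnaAGO2, and with the mimic 9.40 in mimic145 and 8.34 in sirnaAGO2+mimic145. These are bulk RNA samples, in which fewer cells of a kind and less RNA per cell cannot be told apart. Every mimic array lay at position 2 of its slide and its partner without the mimic at position 1, so that mimic and position cannot be told apart.

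In cells with AGO2 present, the mimic lowered GFM2, the recycling factor, and raised GFM1, the elongation factor. The other 7 factors did not pass the test. The values are log2 quantile-normalized signals, averaged over the probes of a gene, and a gene was called at an adjusted p under 0.05 over all 18253 genes in a limma fit with the replicate number as a block. Of the 9 factors 2 were called, or 22.2%, and of all genes 22.6%, so the share of factors called was that of the background.

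GFM2 read 8.14, 7.98 and 8.26 in cntrl replicates 1 to 3 and 7.53, 7.24 and 7.33 in mimic145 replicates 1 to 3. The highest mimic145 array lay below the lowest cntrl array by 0.45. The mean fell from 8.13 ± 0.14 to 7.37 ± 0.14 (SD, n = 3 each), a log2 difference of -0.76 with an SE of 0.09 (limma, adjusted p = 0.000622), which left 59.0% of the signal. GFM2 is among the genes that the study itself singled out on these arrays as lowered by the mimic. Its fall here is therefore not independent evidence of that direction. The paper also followed GFM2 by RT-qPCR in biological replicates, which is apart from these arrays. The p-values measure the spread between arrays that the series describes as biological triplicates.

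GFM1 moved the other way. It read 8.08, 7.92 and 8.13 in cntrl and 8.62, 8.30 and 8.33 in mimic145, again without overlap, with a gap of 0.17 between the groups. The mean rose from 8.05 ± 0.11 to 8.42 ± 0.17, a log2 difference of 0.37 with an SE of 0.09 (limma, adjusted p = 0.0161), and the 3 pairs of equal number gave 0.54, 0.39 and 0.20. This call was lost without the replicate block (adjusted p = 0.0937), with the arrays of these groups only (0.0795) and in the methods' paired t-test (0.255). It was also lost without replicate 1, 2 or 3 in all groups (0.178, 0.0742 and 0.0564), and without the single arrays cntrl replicate 1 (0.0719), mimic145 replicate 1 (0.075) or mimic145 replicate 2 (0.0537).

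**Figure D1:**
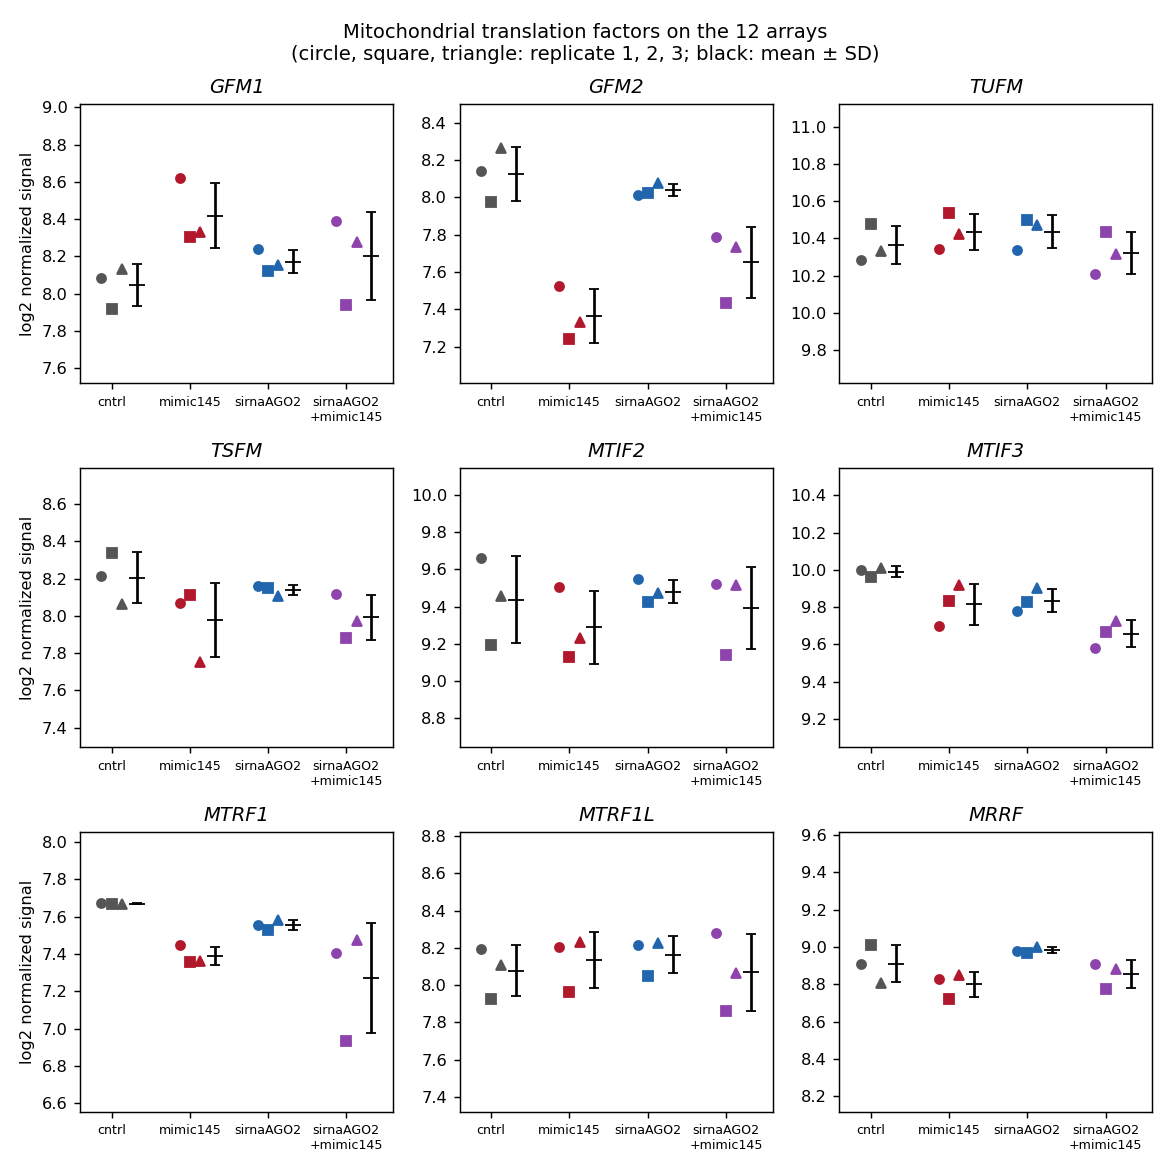
Log2 quantile-normalized signal of each factor (vertical axis, the same span in every panel) on the 12 arrays by group, with the mean ± SD of the 3 replicates in black. GFM2 was lower on every mimic array than on its partners without the mimic, GFM1 was higher on all mimic145 arrays than on the cntrl arrays, and in these groups the other factors differed by less.

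Among the factors that did not pass, MTRF1, a release factor, and MTIF3, an initiation factor, had groups that did not overlap. Across all genes 28.4% had groups that did not overlap in this comparison. MTRF1 read 7.68, 7.67 and 7.67 in cntrl and 7.45, 7.36 and 7.36 in mimic145, a log2 difference of -0.28 with an SE of 0.11 (limma, adjusted p = 0.0999). The cntrl arrays of MTRF1 differed among themselves by less than those of any other factor, with an SD of 0.0042. MTIF3 read 10.00, 9.96 and 10.01 in cntrl and 9.70, 9.83 and 9.92 in mimic145, a log2 difference of -0.18 with an SE of 0.06 (limma, adjusted p = 0.075). Both passed when all genes were measured only from probes that stood well above background throughout the 12 arrays. The adjusted p was then 0.0265 for MTRF1 and 0.0477 for MTIF3 (limma). All 6 kept probes of MTIF3 met that filter already, so its own values did not change, only the set of genes fitted. MTIF3 also passed after normexp background correction (0.0453), and MTRF1 without the array sirnaAGO2+mimic145 replicate 2 (0.0124).

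For the remaining factors the groups overlapped. TUFM, the tRNA carrier, read 10.29, 10.48 and 10.33 in cntrl and 10.34, 10.54 and 10.42 in mimic145, a log2 difference of 0.07 with an SE of 0.06. MTIF2, the other initiation factor, had a log2 difference of -0.15 with an SE of 0.09. MTRF1L, the other release factor, had 0.06 with an SE of 0.07, and MRRF, the partner of GFM2 in recycling, had -0.11 with an SE of 0.08. None of these passed the test, and their adjusted p-values ran from 0.247 to 0.604 (limma). The median log2 difference of the 9 factors was -0.15, against 0.01 for all genes.

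TSFM, the exchange factor for TUFM, had a log2 difference of -0.23 (SE 0.09, limma, adjusted p = 0.119), but its probes disagreed. Of its 8 probes, the only probe assigned to the transcript NM_001172696 read 8.04, 8.11 and 7.88 in cntrl and 6.59, 6.37 and 5.87 in mimic145 and fell by 1.73 on the log2 scale (limma over all 142929 kept probes, of which 15.4% were called, adjusted p = 0.000632). The other 7 probes, assigned to NM_001172697 and NM_005726, lay between -0.17 and 0.06 and none was called. The mean of those 7 probes was 8.23 ± 0.14 in cntrl and 8.22 ± 0.18 in mimic145. With that probe left out, a choice made after its values were seen, the log2 difference of TSFM was -0.01 (limma, adjusted p = 0.946). The low value of TSFM as a gene therefore rested on 1 probe.

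The same probe was lower with the mimic in silenced cells as well. It read 7.29, 7.62 and 7.42 in sirnaAGO2 and 6.54, 6.19 and 6.14 in sirnaAGO2+mimic145, a log2 difference of -1.15 (limma over all kept probes, of which 1.87% were called, adjusted p = 0.0201). Silencing alone gave -0.57 (adjusted p = 0.161). The probe was well above background on 11 of the 12 arrays, the exception being in the sirnaAGO2+mimic145 group. AVIL, a gene of the villin family that overlaps TSFM on the other strand, did not pass with the mimic, with a log2 difference of -0.18 (limma, adjusted p = 0.324), and which strand this probe reads was not tested.

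**Figure D2:**
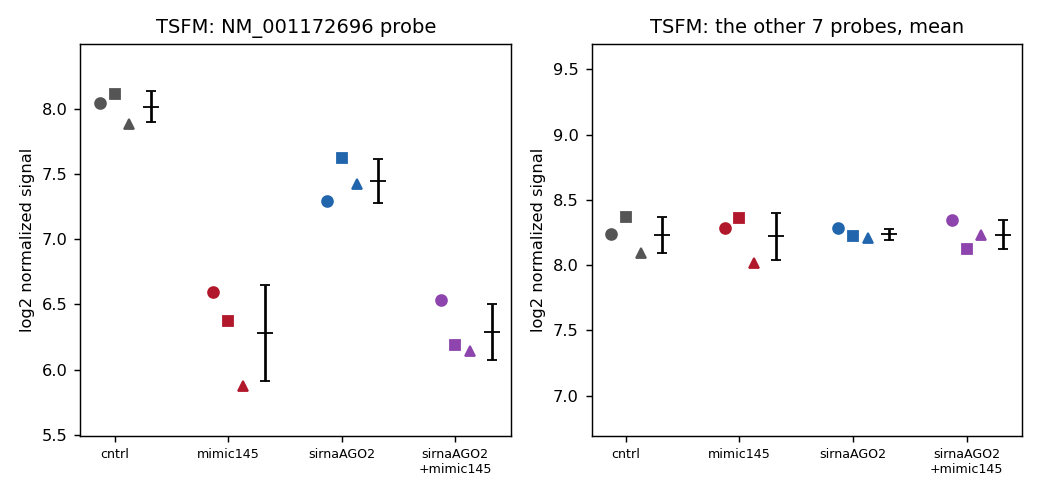
Log2 quantile-normalized signal of TSFM by group, for its NM_001172696 probe (left) and for the mean of its other 7 probes (right), with points for the replicates, mean ± SD in black, and axes of equal span. The single probe was lower on all mimic arrays, while the mean of the other probes was between 8.22 and 8.24 in every group.

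Probes of GFM2 and of GFM1 were described from those well above background on every array, since a dimmer probe can enter through the group where its gene is high, a choice made after the values were seen. Of the 113240 such probes of all genes, fitted on their own, 21.5% were called in this comparison. GFM2 had 22 probes, of which 18 were kept and 12 were well above background on every array. All 12, on the 3 transcripts NM_001281302, NM_032380 and NM_170681, were lower in mimic145, with log2 differences from -0.87 to -0.36 and a median of -0.61, and 11 were called. Probes of 1 gene share a target and are not replicates.

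Fewer GFM2 readings were well above background with the mimic. Over its 22 probes and 3 arrays, 58 of 66 readings in cntrl cells were well above background, and 48 were with the mimic. In silenced cells the counts were 59 without and 50 with the mimic. Over all probes of the array the shares were 67.3% in cntrl, 64.1% in mimic145, 67.8% in silenced cells and 61.6% in silenced cells with the mimic, so fewer readings passed with the mimic there too. From the 12 probes that were well above background on every array, the log2 difference of GFM2 was -0.62 (limma, adjusted p = 0.000336).

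GFM1 had 18 probes on 1 transcript, NM_024996, of which 13 were well above background on every array. All 13 were higher in mimic145, from 0.03 to 0.59, and 10 were called. LXN, which encodes the carboxypeptidase inhibitor latexin and overlaps GFM1 on the opposite strand, had a log2 difference of -1.92 on its own probes (limma, adjusted p = 4.79e-05), so the overlapping genes moved in opposite directions.

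By the same filter MTRF1 had 6 probes, all lower, from -0.41 to -0.08, and 1 was called. MTIF3 had 6, all lower, from -0.28 to -0.04, on 4 transcripts, and 1 was called. TUFM with 11 probes, MTIF2 with 13, MTRF1L with 6, MRRF with 8 and TSFM with 5 had no probe called. In MRRF 5 of the 8 were lower, and in MTRF1L all 6 were higher.

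**Figure D3:**
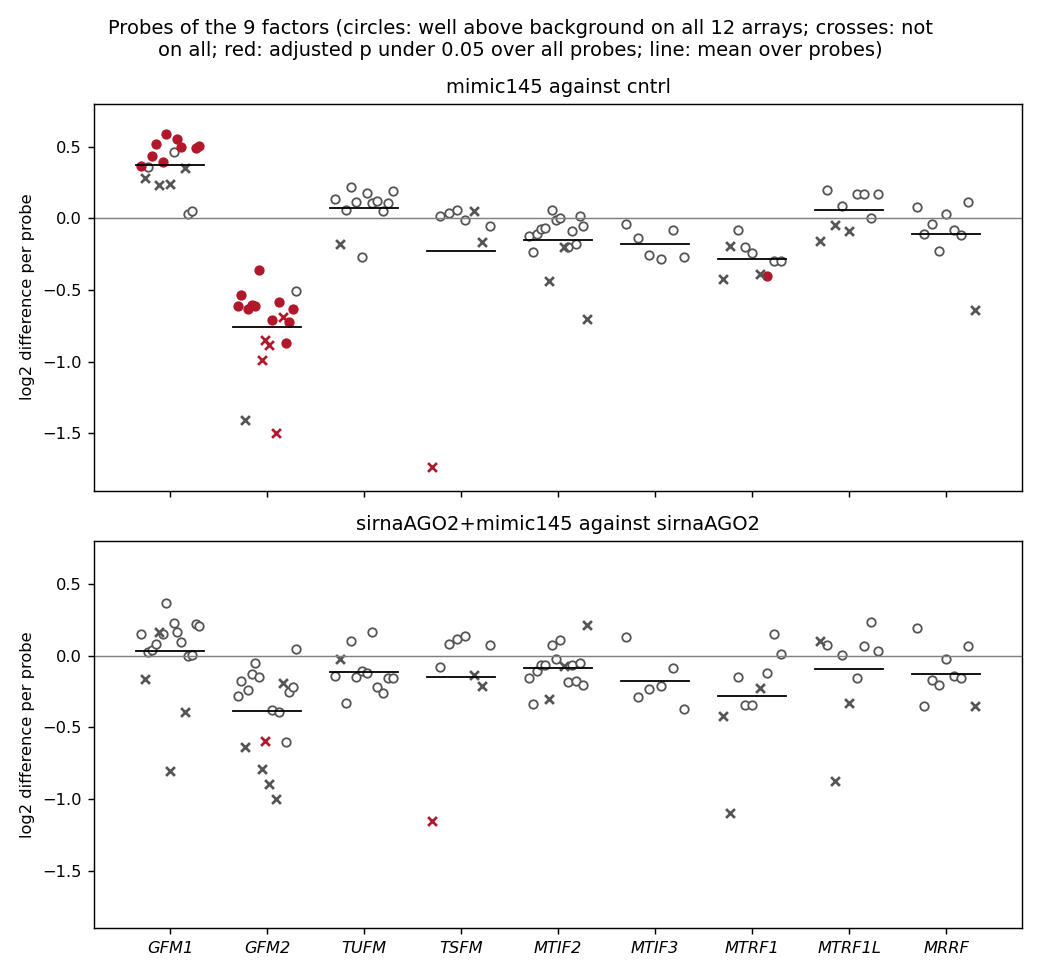
Log2 difference of each kept probe by factor, with the mimic in control cells above and in silenced cells below (circles for probes well above background on all 12 arrays, crosses for the rest, red where the adjusted p over all kept probes was under 0.05, line for the mean). The 12 GFM2 circles lay below 0 and the 13 GFM1 circles above 0 in control cells, and 1 TSFM probe lay apart from its other 7.

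In AGO2-silenced cells GFM2 was again called lower with the mimic, and GFM1 did not pass the test. The call of GFM2 was lost when only its probes well above background on every array were used. Of the 9 factors 1 was called, or 11.1%, against 7.28% of all genes. GFM2 read 8.01, 8.02 and 8.08 in sirnaAGO2 and 7.79, 7.43 and 7.74 in sirnaAGO2+mimic145, with no overlap. The log2 difference was -0.39 with an SE of 0.09 (limma, adjusted p = 0.0365). Of its 12 probes well above background on every array 11 were lower and 1 was called, against 5.16% of such probes of all genes.

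The call of GFM2 in silenced cells held in 11 of 29 other settings. From the 12 probes well above background on every array the log2 difference was -0.24 (limma, adjusted p = 0.0612), and with the median over probes -0.21 (0.158). It was lost without the replicate block (adjusted p = 0.184), with the slide as a fixed block (0.0878) or a random block (0.0546), with the arrays of these groups only (0.139) and in the methods' paired t-test (0.358). It was lost without replicate 1, 2 or 3 in all groups (0.0733, 0.295 and 0.197). It was also lost without 7 of the single arrays, namely cntrl replicates 1 and 2 (0.0522 and 0.057), sirnaAGO2 replicates 1, 2 and 3 (0.0582, 0.168 and 0.118), and sirnaAGO2+mimic145 replicates 2 and 3 (0.119 and 0.105).

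GFM1 read 8.24, 8.12 and 8.15 in sirnaAGO2 and 8.39, 7.94 and 8.28 in sirnaAGO2+mimic145. The groups overlapped, and the log2 difference was 0.03 with an SE of 0.09 (limma, adjusted p = 0.843). Of its 13 probes well above background on every array 12 were higher, with a median of 0.15, and none was called. From those 13 probes alone the log2 difference of GFM1 was 0.13, and GFM1 was not called in any of 29 other settings.

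Of the factors that did not pass, MTRF1, MTIF3 and MRRF had groups that did not overlap here. MTRF1 read 7.56, 7.53 and 7.58 in sirnaAGO2 and 7.41, 6.93 and 7.48 in sirnaAGO2+mimic145, a log2 difference of -0.28 (limma, adjusted p = 0.132). MTIF3 read 9.78, 9.83 and 9.90 without the mimic and 9.58, 9.67 and 9.73 with it, a log2 difference of -0.18 (limma, adjusted p = 0.107). MRRF had a mean of 8.98 ± 0.02 without it and of 8.86 ± 0.07 with it, a log2 difference of -0.13 (limma, adjusted p = 0.297). Groups did not overlap in 24.1% of all genes in this comparison. MTRF1L and MTIF2 overlapped, with log2 differences of -0.10 and -0.09.

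Replicate 2 held the lowest value of its group for 5 of the 9 factors in cntrl, 6 in mimic145, 5 in silenced cells and 7 in silenced cells with the mimic. The same share over all genes was not counted, so this cannot be called particular to the factors. The mimic arrays of replicate 2 had the lowest shares of spots well above background, 61.6% in mimic145 and 60.5% in sirnaAGO2+mimic145. Without the array sirnaAGO2+mimic145 replicate 2 the log2 difference of MTRF1 in silenced cells was -0.12 in place of -0.28, that of TSFM -0.05 in place of -0.15, and that of GFM2 -0.32 in place of -0.39 (limma, adjusted p = 0.348, 0.793 and 0.119). The part of detection in these values was not tested.

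**Figure D4:**
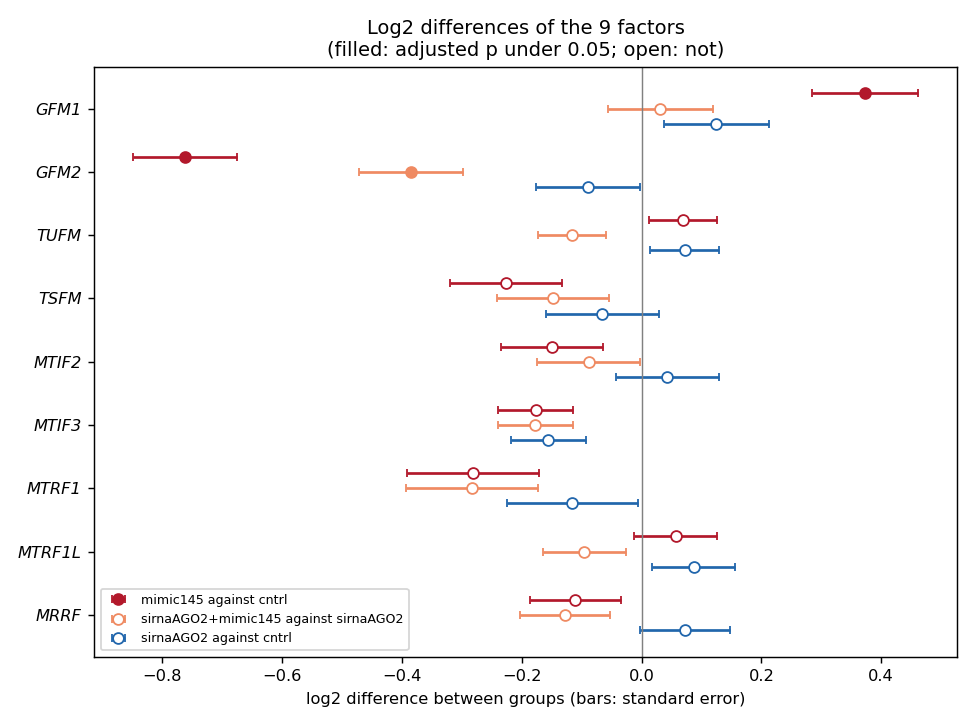
Log2 difference between groups (horizontal axis, bars of 1 standard error) of the 9 factors in 3 comparisons, filled where the adjusted p was under 0.05. GFM2 was called in both comparisons of the mimic, GFM1 in control cells only, and no factor was called for AGO2 silencing.

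Whether the mimic acted differently in the silenced cells was tested as the difference of both mimic effects. Of the 9 factors 0 were called (limma), and 0.011% of all genes were. At an unadjusted p under 0.05 there were 3 of the 9, and 16.8% of all genes. The effect on GFM2 was weaker by 0.38 on the log2 scale in silenced cells (SE 0.12, unadjusted p = 0.0135, limma, adjusted p = 0.194), in 3 of 3 pairs. The effect on GFM1 differed by -0.34 (SE 0.12, unadjusted p = 0.0229, limma, adjusted p = 0.231), in 3 of 3 pairs. The third was TUFM, at -0.19 (unadjusted p = 0.0482, limma, adjusted p = 0.293). Neither the smaller difference of GFM1 nor the smaller fall of GFM2 was thus shown to differ from the effect in control cells. Of all probes 0% were called in this test.

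AGO2 silencing alone changed none of the 9 factors by the test. Of all genes 2.58% were called, and 0.484% of all probes. MTIF3 came nearest, with a log2 difference of -0.16 (SE 0.06, unadjusted p = 0.0345, limma, adjusted p = 0.222), and all 6 of its probes were lower. MTIF3 and MTRF1 had groups that did not overlap, as did 19.1% of all genes. GFM2 differed by -0.09 and GFM1 by 0.13, each with an SE of 0.09. The comparison of silencing shares its control arrays with that of the mimic in control cells.

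The genes beside the factors were set against them. NSA2, which shares the start region of GFM2 printed above, did not follow it, with a log2 difference of 0.06 with the mimic in control cells (SE 0.06, limma, adjusted p = 0.561). RBM18, beside MRRF, rose by 0.23 in control cells (limma, adjusted p = 0.0262), while MRRF differed by -0.11. GTF3A, a transcription factor gene that overlaps MTIF3 on the other strand, fell by 0.35 with the mimic (limma, adjusted p = 0.0173) and differed by -0.34 with silencing (0.0699). SH2B1, whose start is 258 bases from that of TUFM, differed by 0.06, and NAA16, beside MTRF1, by 0.08, and neither was called in any comparison.

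Among the genes whose signal followed GFM2 most closely over the 12 arrays were SH3D19, SP140, USP40 and MYH10, with Pearson correlations of 0.975 to 0.981, from 13328 genes with at least 3 probes. These points share arrays, pairing and the same treatment, and the correlation describes a like pattern only. With the mimic in control cells their log2 differences ran from -0.99 for SP140 to -0.66 for SH3D19. Choosing genes by likeness to GFM2, which itself fell, favours genes that fall here, so these values are no separate evidence. Between GFM2 and the other factors the correlation ran from -0.40 with GFM1 to 0.75 with MTRF1.

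Around the factors, the rest of the mitochondrial translation apparatus was described from lists of names. In the charging of mitochondrial tRNAs, 5 of 22 genes were called with the mimic in control cells, or 22.7%, against 22.6% of all genes. Of these 4 rose and 1 fell. QRSL1, a subunit of the amidotransferase that makes glutaminyl-tRNA, rose by 0.40, and the synthetases FARS2, EARS2 and NARS2 rose by 0.29, 0.28 and 0.23. In silenced cells 1 of the 22 was called with the mimic, or 4.55% against 7.28% of all genes, and it was lower. Silencing alone lowered 2 of the 22, or 9.09%, against 1.69% of all genes called lower. Among the 2 was GATB, another amidotransferase subunit, at -0.43 (limma, adjusted p = 0.025).

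Over all genes 11.6% rose and 11% fell with the mimic in control cells, and 7.28% were called in silenced cells. Of 16 assembly genes 6 rose and none fell in control cells, led by MPV17L2, a ribosome assembly protein of the inner membrane, at 0.73, and by the rRNA chaperone ERAL1 at 0.43 and the rRNA methyltransferase MRM3 at 0.32. The median log2 difference of the list was 0.18. Of 79 mitochondrial ribosomal protein genes 24 rose and 6 fell, or 38% called, with a median of 0.15. With other scalings (the 75th percentile, normexp or the authors' table) 23 to 31 of the 79 rose and 6 to 9 fell, and 5 or 6 of the 16 assembly genes rose and none fell. MRPL19, MRPL50 and MRPL9 rose by 0.76, 0.57 and 0.52, and MRPL51, MRPS18B and MRPL48 fell by 1.19, 0.74 and 0.43. In silenced cells 0 of the 16 assembly genes and 4 of the 79 ribosomal protein genes were called, with MRPL19 (0.37) and MRPL50 (0.33) again higher and MRPS18B (-0.69) and MRPL51 (-0.33) again lower. Silencing alone lowered MRPS18B (-0.47) and raised MPV17L2 (0.35). For the difference of the mimic effects none of these genes was called (limma).

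Of 8 genes for rescue, membrane insertion and mRNA handling, 1 was called with the mimic in control cells, or 12.5% against 22.6% of all genes. This was MRPL58, a peptidyl-tRNA hydrolase of the ribosome that frees stalled chains, which rose by 0.30 and is also counted among the ribosomal proteins. GUF1, the mitochondrial relative of the back-translocating factor LepA, fell by 0.46 with silencing (limma, adjusted p = 0.023) and differed by 0.03 with the mimic.

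Of 9 cytosolic factors with like roles 6 were called with the mimic in control cells, 3 higher and 3 lower, or 66.7% against 22.6% of all genes. The list was chosen by name with earlier results of these data known, and the difference in share was not tested. ABCE1, which splits cytosolic ribosomes for recycling as GFM2 and MRRF do in mitochondria, fell by 0.91, EEF1A1 and EEF1A2, cytosolic relatives of TUFM, fell by 0.43 and rose by 0.94, and the initiation factor EIF5B fell by 0.42. The release factor ETF1 rose by 0.80 and the exchange factor subunit EEF1B2 by 0.22. EEF2, the cytosolic relative of GFM1, differed by -0.03 (limma, adjusted p = 0.847). In silenced cells ABCE1 (-0.68), EIF5B (-0.33) and ETF1 (0.35) were called, in the same directions. That was 33.3% of the list, against 7.28% of all genes. EEF1A1 has near-identical copies in the genome, so its signal is uncertain.

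**Figure D5:**
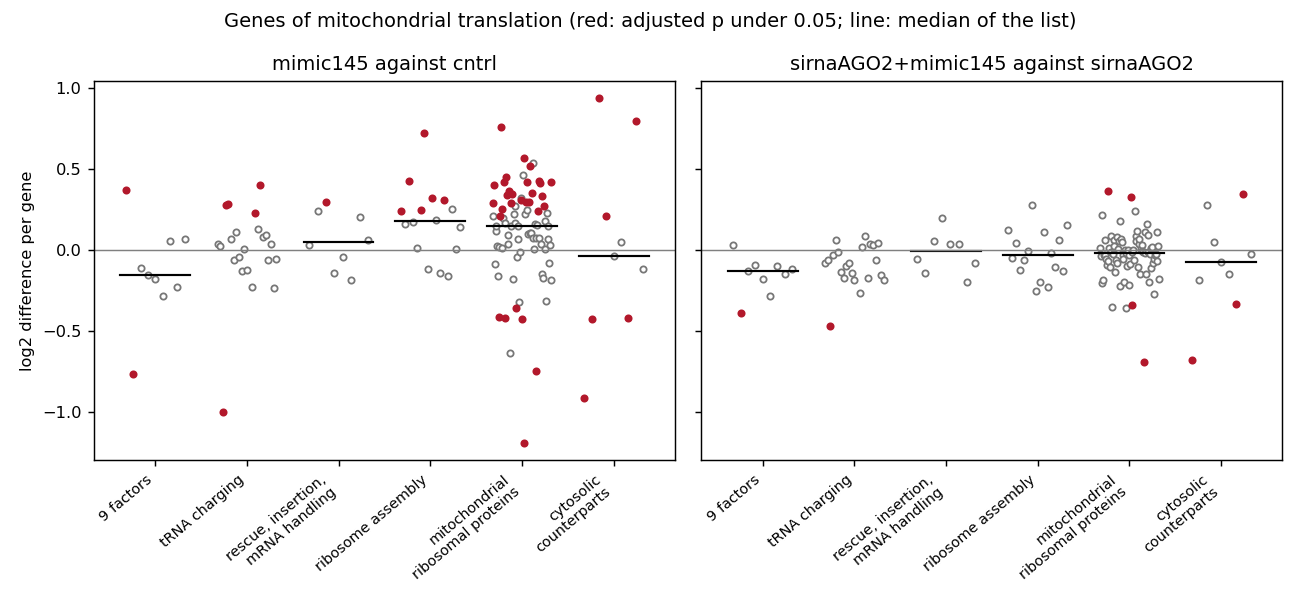
Log2 difference of each gene (points, red where the adjusted p over all genes was under 0.05) in the 9 factors and the 5 lists around them, with the mimic in control cells (left) and in silenced cells (right), and the list median as a line. Called ribosomal protein and assembly genes lay mostly above 0 in control cells, and few genes were called in silenced cells.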

How the data were processed

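Total RNA was labelled with a single dye and the slides were read with Agilent Feature Extraction 10.7.3.1, per the file headers, on a design of build hg19. The authors deposited, per array, the processed signal and the median spot and background intensity, without normalization between arrays, and a table of log2 values, used as an alternative. Here the processed intensity of non-control spots was quantile normalized and log2 transformed, outlier spots were left out, and spots were averaged per probe. A probe was kept when well above background throughout at least 1 group of 3 arrays and measured on all 12, and a gene is the mean of its kept probes (median 5, with 2835 genes on 1 probe). Of 233164 probes, 89.9% were assigned to a gene by transcript. limma 3.58.1 in R 4.3.3 fitted the 4 groups with the replicate number as a block, with Benjamini-Hochberg adjustment. Deviations from group means correlated at 0.148 to 0.576 between arrays of the same number, and at -0.497 to 0.201 between others. Such deviations cancel within a group, so both ranges depend on each other, and arrays that share a slide have the same number. The paper's methods name a paired test. The code was tested on simulated data. Plots used Python 3.11.15 and matplotlib 3.10.9. Members and lists were chosen with earlier results of these data known. Named genes were the members, up to 3 called rises and falls of each list and comparison, overlapping or adjacent genes, and the 5 genes most like GFM2. NARS2 and EEF2 were named after their values were seen. Some genes that the rule named are not reported here. The 13 mRNAs of mitochondrial DNA and the protein sequences were not analysed here.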

Additional observations from a re-analysis of the deposited data

Results flagged for a closer look

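TUFM was picked out because its pairs moved one way in control cells and the other way in silenced cells. With the mimic it was higher in 3 of 3 pairs in control cells (log2 difference 0.07, SE 0.06) and lower in 3 of 3 pairs in silenced cells (-0.12, SE 0.06). The difference between both effects was -0.19 and did not pass the test (limma, adjusted p = 0.293).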

How the results depend on the processing

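The replicate block is part of the fit. Without it 1 of the 9 factors was called with the mimic in control cells in place of 2, and 0 in place of 1 in silenced cells. In control cells the count was 4 when genes were measured from the probes well above background throughout, 1 with the arrays of the compared groups only and 0 in the methods' paired t-test, and 1 to 3 when a replicate or an array was left out. In silenced cells it was 0 when genes were measured from the probes well above background throughout, with that filter for GFM2 alone (added after seeing the data), with the median over probes, with the slide as a fixed block or as a random block, with the arrays of the compared groups only and in the methods' paired t-test, and 0 to 1 when a replicate or an array was left out. For silencing and for the difference of the mimic effects the count was 0 in every setting run. The fall of GFM2 in control cells was called in 28 of 29 settings, at log2 differences from -0.83 to -0.49, and lost in the methods' paired t-test (adjusted p = 0.169). In silenced cells it was called in 11 of 29, from -0.49 to -0.21. The rise of GFM1 in control cells was called in 20 of 29, from 0.29 to 0.46, and GFM1 was called in 0 of 29 in silenced cells.

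Of all genes, the paired t-test called 0 in each comparison, and without the block 1997, 78, 48 and 0 were called in place of 4121, 1328, 471 and 2. Scaling to the 75th percentile moved the median of all genes in silenced cells from 0.02 to 0.11 and the share of higher genes among those called there from 58.4% to 80.2%, and GFM2 was still called. The slide could not be fitted as a fixed block for silencing against cntrl, since no slide holds both, nor could the difference be fitted on fewer than 4 groups. With 3 arrays a group the number of arrays limits the precision.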
